A study of Homo sapiens with 18 samples.

Results

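The HOXD cluster holds 9 homeobox genes (HOXD1, HOXD3, HOXD4, HOXD8, HOXD9, HOXD10, HOXD11, HOXD12 and HOXD13), and its binding by a Polycomb enzyme, the histone mark of that enzyme and the Ewing sarcoma fusion protein is described here. The locus was set as chromosome 2 from 176500000 to 177600000 (hg19, 1100 kb), divided into the cluster (176940000 to 177060000, 120 kb), the left flank (440 kb) and the right flank (540 kb). Every chromatin immunoprecipitation sequencing (ChIP-seq) peak whose centre lay in these bounds was taken, which gave 60 of the 45354 peaks of 5 lists. These were 2 of 2145 EWSR1-FLI1 peaks, 7 of 2573 and 10 of 3945 RING1B peaks (replicates 1 and 2), and 29 of 26423 and 12 of 10268 peaks of monoubiquitinated histone H2A (H2Aub1, replicates 1 and 2). The locus was chosen by the positions of these same peaks, so counts, widths and scores in it are given as a description, without a test.

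All samples came from A673, an established Ewing sarcoma cell line that carries the EWSR1-FLI1 fusion, and no treatment was applied to those used here. Of the 18 samples of the series, 5 were used: RING1B (2 replicates), H2Aub1 (2 replicates) and EWSR1-FLI1 (1 sample, no replicate). The other 13 samples, among them inputs and a RING1B knockdown, were not analysed here. The labels do not say whether replicates came from separate cultures. The lists hold no read counts, so sequencing depth is unknown, and a site without a peak is one that was not called rather than one shown to be empty.

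RING1B is the catalytic subunit of Polycomb repressive complex 1 and places ubiquitin on histone H2A, a mark found with gene silencing. HOX clusters are classical Polycomb targets, and genes of the posterior end, HOXD13 first among them, pattern the limb and are known to be expressed in Ewing sarcoma. In mouse, the gene-poor flanks of the cluster hold enhancers that act on HOXD genes from a distance. EWSR1-FLI1 joins part of EWSR1 to the DNA-binding domain of the ETS factor FLI1 and is known for binding repeats of GGAA. Expression was not measured in these files.

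The RefSeq gene table (GRCh38.p14) orders the genes, with rising coordinates, as EVX2, HOXD13, HOXD12, HOXD11, HOXD10, HOXD9, HOXD8, HOXD4, HOXD3, HOXD1 and MTX2. EVX2, a homeobox gene beside the cluster, is thus the neighbour at the left (HOXD13) end, and MTX2, which encodes a mitochondrial import protein, is the nearest protein-coding neighbour at the right (HOXD1) end. MIR10B, a microRNA gene, stands between HOXD8 and HOXD4. Gene positions of hg19 were not used here, so peaks are given by coordinates and none is assigned to a single promoter.

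Promoter sequences were available from RefSeq for 8 of the 9 HOXD genes (GRCh38.p14, 250 bases before to 50 after the start). HOXD9 was not matched. Those of both ends of the cluster and the one with fewest CG dinucleotides are shown, because CG-rich promoters are where Polycomb complex 1 is known to gather in mammals. Lower case letters run 5′ to 3′ on the plus strand, with CG dinucleotides in capitals.
HOXD13 (chr2:176092471-176092770): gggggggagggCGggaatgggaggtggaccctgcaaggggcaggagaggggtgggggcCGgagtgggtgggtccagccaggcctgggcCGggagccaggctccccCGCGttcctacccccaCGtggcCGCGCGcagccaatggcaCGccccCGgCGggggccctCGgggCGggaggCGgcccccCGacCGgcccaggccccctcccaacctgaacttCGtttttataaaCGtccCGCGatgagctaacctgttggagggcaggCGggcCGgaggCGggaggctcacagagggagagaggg
HOXD4 (chr2:176151300-176151599): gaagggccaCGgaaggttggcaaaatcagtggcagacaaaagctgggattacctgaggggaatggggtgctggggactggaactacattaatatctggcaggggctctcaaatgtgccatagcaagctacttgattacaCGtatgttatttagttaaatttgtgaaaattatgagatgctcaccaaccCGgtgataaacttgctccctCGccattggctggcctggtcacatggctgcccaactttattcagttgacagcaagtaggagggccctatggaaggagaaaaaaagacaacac
HOXD1 (chr2:176188418-176188717): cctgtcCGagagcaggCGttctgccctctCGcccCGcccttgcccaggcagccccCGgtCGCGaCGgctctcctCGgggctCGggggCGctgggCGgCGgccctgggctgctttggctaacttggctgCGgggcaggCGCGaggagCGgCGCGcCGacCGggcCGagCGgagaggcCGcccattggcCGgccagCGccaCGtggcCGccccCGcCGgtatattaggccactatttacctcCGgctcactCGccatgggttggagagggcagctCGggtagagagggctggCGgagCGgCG
The HOXD1 promoter held 36 CG dinucleotides, more than 87.3% of the 35116 promoters in the RefSeq table. HOXD13 held 24 (more than 66.1%), and HOXD4 held 4 (more than 24.5%). The median was 24.5 over the 8 HOXD promoters and 14 over all promoters. The repeat GGAAGGAA, searched on both strands, was found in 0 of the 8 HOXD promoters and in 3.67% of all promoters of this length. These promoter coordinates belong to another build and cannot be set beside the peak coordinates.

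RING1B occupied the left end of the HOXD cluster in both replicates, and the broad, high-scoring peaks there were found in both lists. The deposited score is the authors', with a scale that is not given, and is used only to rank peaks within a list. In replicate 1 the peaks ran from 176939957 to 176943541 (score 515.98), from 176945049 to 176947503 (974.38) and from 176949111 to 176950150 (59.43). The second of these ranked 44 of 2573 by score, whereas the third scored above only 18.7% of the list. In replicate 2 the same stretch held peaks from 176939799 to 176942924 (285.71), from 176943205 to 176944268 (83.40), from 176944338 to 176947942 (878.40) and from 176949229 to 176950210 (69.73). The third of these ranked 40 of 3945. Thus the same site carried the highest RING1B score of the cluster in each list.

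All 3 replicate 1 peaks of the cluster overlapped a replicate 2 peak (62.6% over the whole replicate 1 list), and 4 of the 7 replicate 2 peaks overlapped replicate 1 (40.9% over the whole list). Merging peaks of both replicates that share at least 1 bp gave 3 reproducible RING1B regions in the cluster. Their widths were 4470, 3605 and 1100 bp, and the widest ranked 35 of the 1587 reproducible regions by width. The 3 peaks found in replicate 2 alone lay further right, from 176971533 to 176972365 (score 51.56), from 176986257 to 176987951 (84.69) and from 176993806 to 176995811 (88.70). Their scores lay above 4.06%, 55.8% and 58.8% of the replicate 2 list, and replicate 1 had no peak right of 176950150 in the cluster. The left flank held the centre of no RING1B peak in either replicate.

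**Figure D1:**
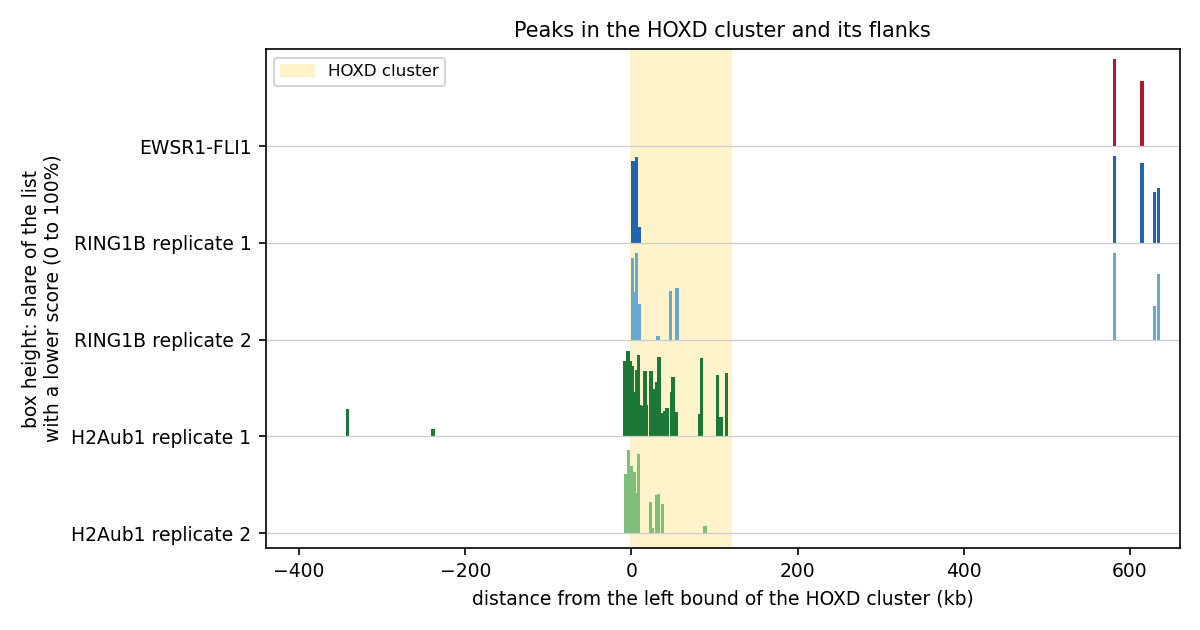
Peaks of the 5 lists along the HOXD cluster (shaded) and its flanks, by distance in kb from the left bound of the cluster. Box height gives the share of the same list with a lower score (0 to 100% within each row), and boxes are drawn at least 4 kb wide. RING1B and H2Aub1 peaks meet at the left end of the cluster, and both EWSR1-FLI1 peaks lie in the right flank.

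H2Aub1 formed a dense run of peaks that began in the left flank, crossed the left bound and thinned out to the right. Replicate 1 had 24 peaks in the cluster, 5 in the left flank and 0 in the right flank, and replicate 2 had 9, 3 and 0. The peak with the highest H2Aub1 score of the locus lay just outside the cluster in both lists, from 176933030 to 176938296 in replicate 1 (score 888.03, above 98.6% of the list) and from 176935254 to 176938218 in replicate 2 (315.19, above 95.4%). In replicate 1 it was joined, almost without a gap, to peaks from 176930563 to 176933015 (219.76) and from 176938317 to 176940137 (228.39). Replicate 2 had smaller neighbours from 176932081 to 176933194 (104.52) and from 176938827 to 176940282 (130.51). The left bound at 176940000 therefore cuts through the marked stretch. The left flank beyond it held 2 isolated peaks of replicate 1, from 176598051 to 176598972 (66.89) and from 176700785 to 176701431 (53.35), and none of replicate 2.

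In both lists the highest H2Aub1 peak of that stretch scored above every peak of the cluster, while the other peaks of the stretch lay within the range of the cluster peaks. In replicate 1 the highest in the cluster were 390.60 (176947329 to 176949363), 319.00 (176971916 to 176974572), 289.11 (177022843 to 177025899), 170.14 (176940826 to 176942041) and 149.01 (176945215 to 176947238). The peak at 177022843 was also the widest of the cluster, at 3057 bp. Another of the widest, from 176962662 to 176964519, scored 143.48. In replicate 2 the highest in the cluster were 222.52 (176947102 to 176949159), 109.10 (176942582 to 176944138), 74.97 (176945312 to 176946435), 74.32 (176972468 to 176973442) and 72.40 (176970146 to 176970970). Both lists thus had their highest cluster score at the same place, partly overlapping the highest RING1B peak of the cluster. The median score of the cluster peaks was 88.4 in replicate 1 and 72.40 in replicate 2, beside 84.7 and 78.7 over the whole lists, so most single peaks of the cluster were of ordinary score.

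Of the 24 cluster peaks of replicate 1, 8 overlapped replicate 2 (26.6% over the whole list), and 8 of the 9 replicate 2 peaks overlapped replicate 1 (77.3% over the whole list). Merging gave 7 reproducible H2Aub1 regions in the cluster and 2 in the left flank. The left flank region from 176930563 to 176938296 was the widest of them, at 7734 bp, and ranked 269 of 6408 by width. Within the cluster the widest ran from 176945215 to 176949363 (4149 bp), followed by 176971916 to 176974572 (2657 bp), 176964779 to 176966913 (2135 bp), 176942582 to 176944625 (2044 bp) and 176962662 to 176964519 (1858 bp). The remaining regions, from 176970030 to 176971486 and from 176976566 to 176978169, spanned 1457 and 1604 bp. No reproducible region lay right of 176978169, so the side nearer HOXD1 had the mark in single lists only.

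**Figure D2:**
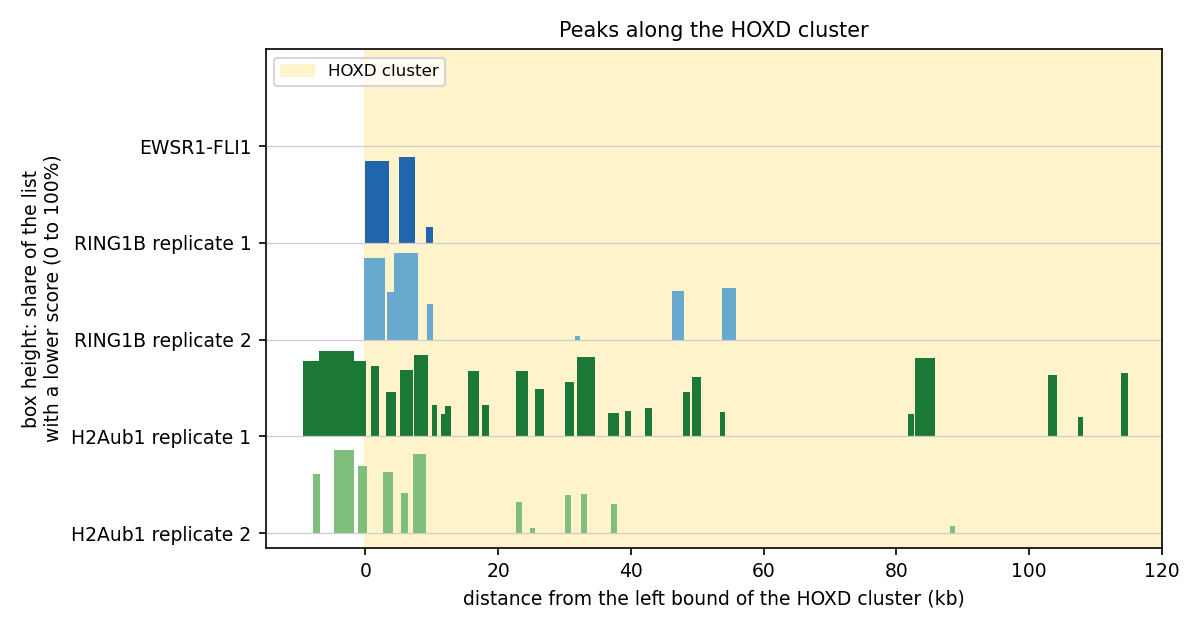
Peaks of the 5 lists in the HOXD cluster (shaded) and the 15 kb to its left, by distance in kb from the left bound, drawn to scale. Box height gives the share of the same list with a lower score (0 to 100% within each row). H2Aub1 peaks extend further right than RING1B peaks in both replicates, but in replicate 2 only through a single peak (score 52.74) that overlapped no replicate 1 peak. Without it the H2Aub1 peaks of replicate 2 end at 176977939, left of the last RING1B peak of replicate 2 (ending at 176995811).

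In steps of 20 kb, the share of DNA under H2Aub1 peaks in replicate 1 was 47.0% just left of the cluster, then 59.9%, 49.0%, 22.5%, 0%, 19.9% and 16.6% along it. In replicate 2 these shares were 26.3%, 25.1%, 22.3%, 0%, 0%, 3.44% and 0%. Bases under the mark in both replicates made up 26.2%, 21.3% and 18.4% of the leftmost 3 steps and 0% of the others. RING1B covered 35.2% and 42.9% of the step from 0 to 20 kb in replicates 1 and 2, and at most 18.5% of any other step in either replicate. The step from 60 to 80 kb held no peak of any list. Within the cluster bounds both the enzyme and its mark were therefore densest at the left end, the side of HOXD13 and its neighbour EVX2. Whether these bounds also take in EVX2 was not determined, so the peaks there cannot be given to HOXD13 or another HOXD gene.

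The right part of the cluster differed between the H2Aub1 replicates. The replicate 1 peak from 177022843 to 177025899 scored above 90.5% of its list and had no replicate 2 partner. Of the 2506 replicate 1 peaks with a score at least as high, 246 (9.82%) lacked one. Replicate 2 had a single peak on that side, from 177028140 to 177028826 (52.74), which overlapped no replicate 1 peak. The replicate 1 list is the longer, and the part of list length in this difference was not tested.

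**Figure D3:**
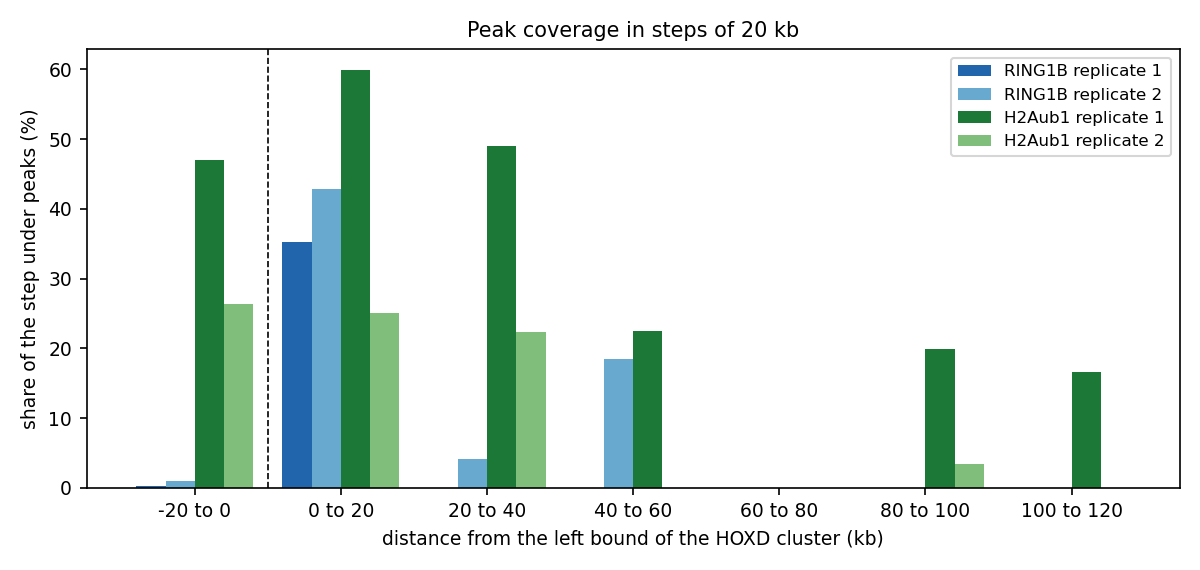
Share of each 20 kb step covered by RING1B and H2Aub1 peaks in each replicate, by distance in kb from the left bound of the HOXD cluster (dashed line). EWSR1-FLI1 had no peak in these steps. RING1B coverage stands highest in the step from 0 to 20 kb, at 35.2% and 42.9%, and H2Aub1 of replicate 1 at 59.9%.

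RING1B regions of the cluster overlapped the mark, the third only at an edge, while much of the marked DNA had no RING1B peak. All 3 reproducible RING1B regions of the cluster overlapped a reproducible H2Aub1 region, against 19.8% of all 1587 RING1B regions. Requiring 50% of the shorter region, or a centre within 500 bp, left 2. The third replicate 1 peak had 41.3% of its bases under H2Aub1 replicate 1 and 4.71% under replicate 2. Its replicate 2 counterpart had 37.9% and 0%. By single lists, 3 of 3 RING1B peaks of replicate 1 met H2Aub1 of replicate 1 (24.1% over the whole list), and 3 of 7 of replicate 2 met H2Aub1 of replicate 2 (12.6%). The 3 peaks found in RING1B replicate 2 alone each overlapped an H2Aub1 peak of replicate 1, by 450, 141 and 440 bp, and none of replicate 2. These overlaps made up 54.0%, 8.32% and 21.9% of the RING1B peaks, and H2Aub1 replicate 1 covered 28.0% of the cluster. No share over the whole list is given for this pair of lists, so nothing is concluded from the count. By bases, 62.7% of RING1B in the cluster lay under H2Aub1 in replicate 1 and 26.9% in replicate 2, against 21.5% and 9.55% over the genome. Conversely, 2 of the 7 reproducible H2Aub1 regions of the cluster overlapped a reproducible RING1B region (4.98% over all 6408). The small numbers and the selection of the locus allow no test of these shares.

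The highest-scoring peaks of enzyme and mark overlapped in part within the cluster but lay apart over the whole locus. The RING1B peak with the highest cluster score in replicate 1 (974.38) overlapped H2Aub1 peaks of 149.01 and 390.60. Its replicate 2 counterpart (878.40) overlapped H2Aub1 peaks of 74.97 and 222.52. The peaks of 390.60 and 222.52 were the highest H2Aub1 peaks of the cluster in their lists. RING1B of the same replicate covered 21.0% of the former, counting 2 RING1B peaks, and 40.9% of the latter. The widest H2Aub1 region, which holds the highest scores of the mark, overlapped no RING1B peak and ended 1660 bp from the nearest one in replicate 1 and 1502 bp in replicate 2. The 5 reproducible H2Aub1 regions right of 176960000 lay 12.5 to 26.4 kb from the nearest RING1B peak of replicate 1. In replicate 2 their gaps were 0 to 7.01 kb, all measured to the low-scoring peak at 176971533.

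EWSR1-FLI1 had no peak in the cluster or the left flank, and 2 in the right flank. Its list is short, and 23944 of 25775 genome bins of the length of the cluster (92.9%) likewise held none, so the absence from the cluster is the common case. The bins include unmappable sequence, where no peak can be called, which raises this share. A stretch of 465 kb, from 177054946 to 177520161, held no peak of any list and separated the last H2Aub1 peak of the cluster from the right flank sites. Among 32241 gaps between neighbouring peaks over all 5 lists, 1317 (4.08%) were at least as long. The EWSR1-FLI1 peak from 177520547 to 177521787 scored 1485.05 and ranked 9 of 2145. The other, from 177553883 to 177555342, scored 166.98 and ranked 556, and its centre lay 33.4 kb further right. Over the whole list 19.7% of EWSR1-FLI1 peaks had another at this distance or nearer.

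The site at 177520162 was shared by EWSR1-FLI1 and both RING1B replicates. RING1B scored 1761.78 there in replicate 1 (177520162 to 177522040, rank 13 of 2573) and 977.63 in replicate 2 (177520239 to 177522444, rank 31 of 3945). These were the highest RING1B scores of the whole locus, above those at the left end of the cluster in both lists. The site was already known to be strong and shared when the locus was set, so its ranks and sharing only describe it. The whole EWSR1-FLI1 peak lay inside both RING1B peaks, and its centre was 66 bp and 174 bp from theirs. Neither H2Aub1 list had a peak in the right flank, and the nearest H2Aub1 peaks lay 305 kb away in replicate 1 and 493 kb away in replicate 2. The strongest RING1B site of the locus thus had no called H2Aub1, unlike the RING1B regions of the cluster. A site without the mark is the common case, as 19.8% of all 1587 reproducible RING1B regions overlapped a reproducible H2Aub1 region. Of all EWSR1-FLI1 peaks, 14.6% and 7.37% overlapped H2Aub1 replicates 1 and 2.

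The second EWSR1-FLI1 site had a RING1B peak in replicate 1 but none in replicate 2. There RING1B scored 434.94 (177553768 to 177555330), above 92.0% of the replicate 1 list, with its centre 63 bp from that of the EWSR1-FLI1 peak. Replicate 2 had no peak at the site, and its nearest lay 14.7 kb away. Of the 205 replicate 1 peaks scoring at least 434.94, this was the sole one without a replicate 2 partner (0.488%), and the next highest peak without one scored 374.50. Among the 1168 replicate 1 peaks with EWSR1-FLI1, 278 (23.8%) lacked a replicate 2 peak.

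**Figure D4:**
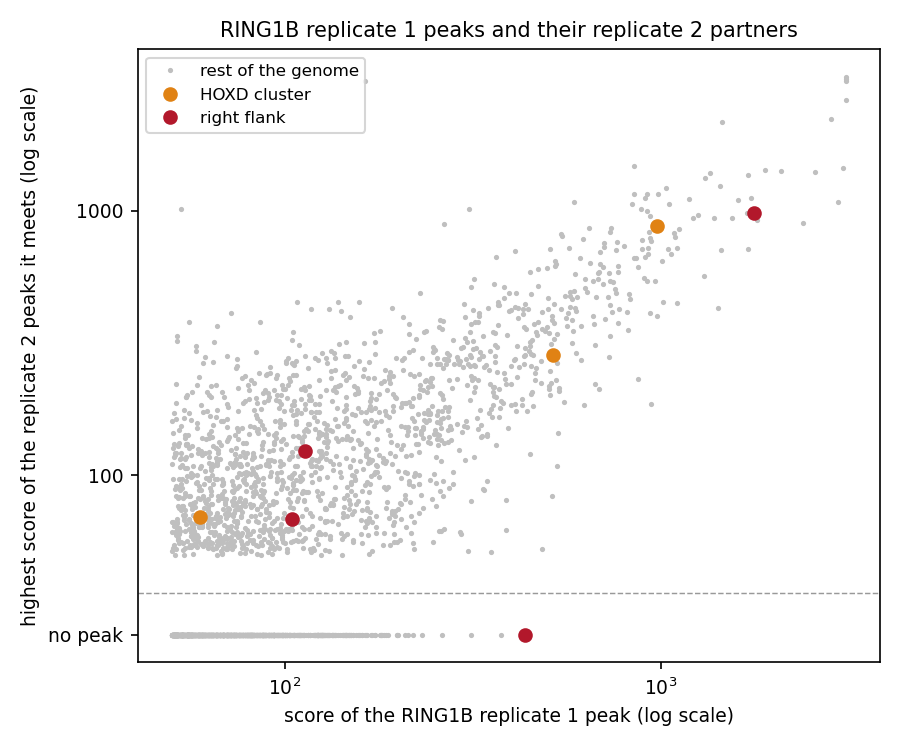
Score of each RING1B replicate 1 peak (x axis, log scale) and the highest score of the replicate 2 peaks it overlaps (y axis, log scale), with peaks lacking a partner drawn below the dashed line. Peaks of the HOXD cluster and of the right flank are coloured. The right flank peak of score 434.94 is the highest-scoring one in the row without a partner.

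Further right, 2 weaker RING1B sites were found in both replicates without EWSR1-FLI1. One scored 104.52 in replicate 1 (177568604 to 177570124) and 68.58 in replicate 2 (177568639 to 177569971). The other scored 113.23 in replicate 1 (177574062 to 177575228) and 123.67 in replicate 2 (177573986 to 177575240). These scores lay between 38.7% and 74.9% of their lists. The right flank thus held RING1B with EWSR1-FLI1 and RING1B with neither EWSR1-FLI1 nor H2Aub1.

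Across the locus, 1 of the 6 reproducible RING1B regions overlapped EWSR1-FLI1 (56.2% of all 1587) and 3 overlapped H2Aub1 (19.8%). No region of the locus carried both. By replicate, 2 of 7 RING1B peaks of replicate 1 met EWSR1-FLI1 (45.4% over the list) and 1 of 10 of replicate 2 (29.7%). Of the 2 EWSR1-FLI1 peaks, 2 met RING1B replicate 1 (54.5% over the list), 1 met replicate 2 (54.7%), 1 met a reproducible RING1B region (41.8%) and 0 met H2Aub1 in either list (14.6% and 7.37%).

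**Figure D5:**
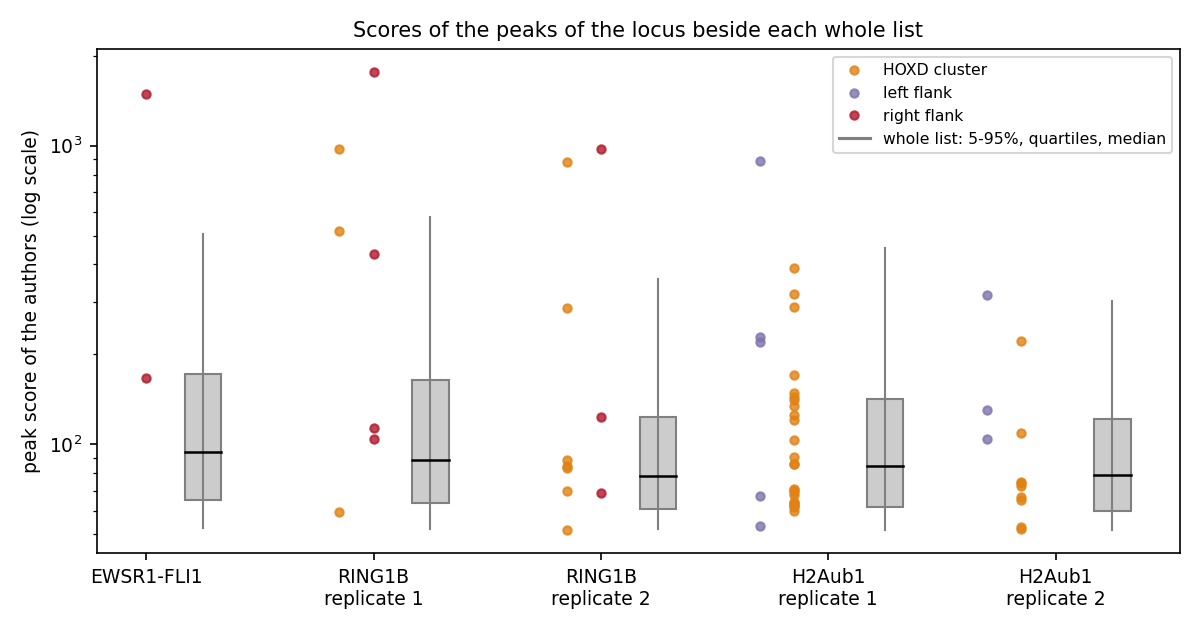
Scores of the authors (log scale) for the peaks of the locus, as points coloured by interval, beside the spread of each whole list (grey bar for the quartiles, black line for the median, whisker for 5 to 95%). The RING1B points reach 1761.78 and 977.63 in the right flank, while most H2Aub1 points of the cluster lie near the median of their list.

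The cluster was compared with the genome cut into 25775 bins of its own length. No bin was left out for assembly gaps or unmappable sequence, where no peak can be called, which lowers the shares of bins given here. RING1B covered 5.86% of the cluster in replicate 1 and 10.9% in replicate 2, and 26 bins (0.101%) and 5 bins (0.0194%) were covered at least as much, the cluster included. H2Aub1 covered 28.0% in replicate 1 and 8.47% in replicate 2, and 146 bins (0.566%) and 284 bins (1.1%) reached these values. Among the bins with any peak of the list, the median cover was 0.902% and 0.907% for RING1B and 2.19% and 1.49% for H2Aub1. By covered bases the cluster thus ranked higher among bins for RING1B than for its mark in both replicates. By number of peaks, ties included, 113 bins for RING1B and 60 for H2Aub1 reached the cluster in replicate 1, and 3 and 160 in replicate 2. The lists also differ in reach, with signal in 2028 and 3107 bins for RING1B and in 7096 and 4021 for H2Aub1. Bins were laid so that the cluster was 1 of them, and the locus was chosen for its peaks, so these ranks describe it and support no test.

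The distance to the next peak outside the locus differed between lists. In H2Aub1 replicate 2 the 12 peaks of the locus, which spanned 96.7 kb, were the sole ones in a stretch of 3.73 Mb (175206086 to 178936239). In RING1B replicate 1 the 7 peaks of the locus were the sole ones in 6.35 Mb (176296874 to 182643750). In RING1B replicate 2, H2Aub1 replicate 1 and EWSR1-FLI1 the stretches without another peak were shorter, at 1.5, 1.42 and 1.5 Mb. Each of the 5 stretches includes the 1100 kb of the locus.

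The bounds of the locus left out sites on either side. The nearest on the left that carried EWSR1-FLI1 and RING1B lay 203 kb outside, with scores of 194.77 for EWSR1-FLI1 (176295681 to 176296825), 128.52 for RING1B replicate 1 (176295777 to 176296873) and 209.49 for replicate 2 (176295692 to 176297127). On the right, the nearest EWSR1-FLI1 peak (177796578 to 177797532, score 57.82) lay 197 kb outside, within a RING1B peak of replicate 2 (177796464 to 177797661, 99.16), and had no RING1B peak in replicate 1. The nearest H2Aub1 peaks of replicate 1 outside the bounds scored 61.81 on the left and 52.17 on the right. Just inside, the outermost peaks were the H2Aub1 peak at 176598051 on the left (66.89) and the RING1B peaks ending at 177575228 and 177575240 on the right (113.23 and 123.67).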

How the data were processed

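ChIP-seq peak lists of 5 A673 samples were used. Per the submitters' processing notes, reads were handled with Bowtie and hg19, and for RING1B and H2Aub1 also mm9, without a stated purpose. Per the file headers and rows, each peak is named MACS plus a number. The caller's version, background sample and filters are not stated. Each list belongs to 1 sample. The deposited score of each peak is the authors', has no stated scale and served only to rank peaks within a list.

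Positions were written 1-based. A peak belonged to the interval holding its centre. Reproducible regions were merged peaks of both replicates sharing at least 1 bp, and overlap also meant at least 1 bp. Chromosome lengths of hg19 came from GenomeInfoDb 1.38.1, and tables were made with Python 3.11.15, pandas 2.3.3 and numpy 2.4.6. Overlap and merging were checked with a list of known overlaps, made of narrowed copies of RING1B replicate 1 peaks and invented peaks far from them. No statistical test was made, because the locus was chosen from these peaks. The locus, its genes and the lists were chosen with earlier results of these data known. By the rule for naming, every RING1B and EWSR1-FLI1 peak of the locus and the 5 widest and 5 highest-scoring H2Aub1 regions of each interval are named. The search for GGAA repeats within peaks and distances to transcription starts were planned but not run, as no hg19 genome was used here. Depth is unknown. The alternatives tried are given in the closing section.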

Additional observations from a re-analysis of the deposited data

How the results depend on the processing

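Of 72 values recomputed under alternatives for 14 results, 51 stayed within 1.5 times the reported count or within 1 SD of the replicates for cover, and 21 moved. With the union of replicates the cluster held 6 RING1B and 24 H2Aub1 regions and the left flank 4 H2Aub1 regions, 2 RING1B regions of the locus had EWSR1-FLI1 and 6 had H2Aub1, 2 EWSR1-FLI1 peaks had RING1B, and the cluster was covered to 29.8% by H2Aub1 and to 11.3% by RING1B (13.5% and 7.48% for reproducible regions). With 1 RING1B replicate left out the cluster held 3 to 7 RING1B regions, 1 to 2 RING1B regions of the locus had EWSR1-FLI1, 3 to 5 had H2Aub1, and 1 to 2 EWSR1-FLI1 peaks had RING1B. The value of 2 came without RING1B replicate 2, and those of 7 and 5 without RING1B replicate 1. With 1 H2Aub1 replicate left out the cluster held 9 to 24 and the left flank 3 to 5 H2Aub1 regions, and the mark covered 8.47% to 28.0% of the cluster, the higher values coming without replicate 2. In the highest-scoring 50% of each list the cluster held 2 H2Aub1 regions and the mark covered 5.4% of it. That value counts among the 51 because the SD of 13.8 percentage points between replicates exceeds the reported cover of 13.5%, so no decrease could count as moved. Joining peaks within 5 kb left 1 RING1B and 2 H2Aub1 regions in the cluster and 0 H2Aub1 regions in the left flank, with 51.1% of the cluster covered by H2Aub1, since the gaps are then counted. Moving the cluster bounds out by 20 kb left 0 H2Aub1 regions in the left flank and gave the cluster 9. EWSR1-FLI1 in the cluster and left flank, H2Aub1 in the right flank and RING1B in the left flank stayed at 0 under each alternative run. These counts are among the 51, but apart from EWSR1-FLI1 in the cluster they could not have changed. No single list had a peak centre there, and the alternatives could add none. For EWSR1-FLI1 in the cluster, only the wider bounds could have added a peak, and 0 is the state of 92.9% of bins of its length.

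No paired analysis was possible because no result comes from a test. Depth is unknown, so a missing peak in the shorter H2Aub1 list or in either RING1B list cannot be told from one below its calling threshold.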
